A study of Mus musculus with 6 samples.

Results

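The genes described here are 9 members of the FGF and PDGF signalling families: the FGF receptors Fgfr1, Fgfr2, Fgfr3 and Fgfr4, the PDGF receptors Pdgfra and Pdgfrb, and the PDGF ligands Pdgfa, Pdgfb and Pdgfc. They were chosen by name, with their counts and RPKM values under every condition already known, so their own levels and differences are given as a description, without p-values. All 9 were found among the 20631 genes of the tables, and they account for 18 of the 30352 transcripts. Fgfr3 had 5 transcripts, Fgfr1 had 3, Fgfr2, Pdgfra and Pdgfrb had 2 each and every other member had 1.

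The cells were neuromesodermal progenitors (NMPs), the bipotent cells of the caudal embryo that give rise to spinal cord and paraxial mesoderm, made in culture from mouse embryonic stem cells, which the labels give as 129 R1 and the methods as C57BL/6. In all 3 conditions the cells had received bFGF alone for 2 days and then bFGF with CHIR99021, an inhibitor of GSK3 that switches on canonical Wnt signalling, for 1 day. Both agents were then withdrawn and the cells were kept for 2 h in N2B27 medium with DMSO as vehicle, with 25 nM retinoic acid (RA) or with 1 µM RA. Each condition had 2 samples, grown in 2 separate dishes of 1 cell line and termed technical replicates in the methods. The errors given here are therefore between dishes and may be smaller than those between independent experiments. RPKM is reads scaled to transcript length and to the reads mapped in the sample, and a gene's RPKM is the sum over its transcripts.

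The libraries held between 31753556 and 42029348 estimated counts, and no library stood apart in depth. The RA-responsive genes followed the labels: Rarb, the gene for retinoic acid receptor beta, was at 0.237 ± 0.032 RPKM in DMSO (SD, n = 2 here and throughout), 5.28 ± 0.44 in 25 nM RA and 6.77 ± 0.17 in 1 µM RA. Of the 8 NMP markers checked, 7 had a mean over 1 RPKM in DMSO, led by T at 375.2 ± 7.0 RPKM, with Sox2 at 5.20 ± 0.01, whereas Cdx4 was near 0 (0.072 ± 0.018). Transcripts of other cell states were also present. The 6 pluripotency markers summed to between 618.7 and 630.6 RPKM in DMSO and to between 612.3 and 644.4 in RA. Most of the DMSO sum was Pou5f1 (444.9 ± 18.1), and only 4 of the 6 had a mean over 1 RPKM in DMSO. The 6 endoderm markers summed to between 53.2 and 54.4 RPKM in DMSO and to between 40.0 and 42.1 in RA.

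FGF receptors and PDGF receptors are receptor tyrosine kinases: a ligand outside the cell brings receptor chains together, they phosphorylate each other, and adaptor proteins then start the RAS-ERK, PI3K and phospholipase C pathways. FGF signalling maintains the progenitors of the caudal epiblast and is opposed there by RA from the somites. PDGFRα is a familiar surface marker of paraxial mesoderm and of primitive endoderm, PDGFRβ is best known from pericytes and other mesenchyme, and the ligands act as dimers of PDGF-A, PDGF-B or PDGF-C chains.

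An FGF receptor binds its ligand with immunoglobulin-like domains, and in Fgfr2 the last part of the third such domain is encoded by either of a pair of alternative exons, IIIb or IIIc. Epithelial cells are known for the IIIb form and mesenchymal cells for the IIIc form, and the forms respond to different FGFs. The tables modelled 1 transcript with each exon, NM_201601 with IIIb and NM_010207 with IIIc, and the IIIb exon is shown because the share of the transcript that carries it is described further on. It lies on the minus strand of chromosome 7 in GRCm38 (mm10), at chr7:130199758-130199905 (148 bases, coding), by the GENCODE M21 annotation, and is given in lower case with no base marked.
Fgfr2 IIIb exon, in NM_201601: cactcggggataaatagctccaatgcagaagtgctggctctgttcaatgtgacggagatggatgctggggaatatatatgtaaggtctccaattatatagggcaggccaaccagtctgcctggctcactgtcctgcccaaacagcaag
NM_201601 also lacked the 267-base exon at chr7:130242378-130242644 and the 78-base exon at chr7:130241200-130241277, both coding and both in NM_010207.

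The transcripts of Fgfr1 differ far less. NM_010206 and NM_001079908 differ only in where 1 coding exon ends, by 6 bases, which are shown in capitals at the end of the exon of NM_010206 at chr8:25557731-25557820 on the plus strand. The third transcript, NM_001079909, lacks the 267-base coding exon at chr8:25555508-25555774.
Fgfr1 exon, in NM_010206: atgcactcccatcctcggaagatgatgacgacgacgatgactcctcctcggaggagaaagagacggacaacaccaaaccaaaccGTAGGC

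RA acts through nuclear receptors that bind pairs of hexamers, of which AGGTCA is the best known, and the 250 bases upstream of the RefSeq start are shown for Pdgfra and Fgfr2, both higher in RA, with CpG dinucleotides in capitals. The Pdgfra stretch is chr5:75152001-75152250 on the plus strand (4 CpGs, 54.4% G or C) and the Fgfr2 stretch is chr7:130266809-130267058 on the minus strand (2 CpGs, 44.0% G or C), both from RefSeq on GRCm38.p6.
Pdgfra, upstream of the start: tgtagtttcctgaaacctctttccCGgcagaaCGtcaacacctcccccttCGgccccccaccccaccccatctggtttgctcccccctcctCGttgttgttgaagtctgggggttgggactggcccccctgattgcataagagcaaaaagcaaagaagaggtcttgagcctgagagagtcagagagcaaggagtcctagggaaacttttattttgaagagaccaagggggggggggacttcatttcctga
Fgfr2, upstream of the start: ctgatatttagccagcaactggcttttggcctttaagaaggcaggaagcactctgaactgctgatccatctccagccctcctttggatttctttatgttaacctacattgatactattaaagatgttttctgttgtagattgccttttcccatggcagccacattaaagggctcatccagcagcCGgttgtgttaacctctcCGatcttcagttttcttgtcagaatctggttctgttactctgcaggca
Neither stretch held AGGTCA on either strand, and neither did any of the 8 upstream stretches given for 6 of the 9 members, against 14.0% of 32851 such stretches in all. Fgfr1, Pdgfb and Pdgfrb were not searched. This search concerns only those letters in those windows.

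Fgfr1 was the most abundant member in DMSO at 17.2 ± 0.5 RPKM, above 75.8% of the 15143 genes tested. Pdgfra followed at 9.59 ± 0.25 and Pdgfa at 6.46 ± 0.33. Pdgfb (1.24 ± 0.33), Fgfr2 (1.16 ± 0.02) and Pdgfrb (1.15 ± 0.03) came next, and the samples of each overlapped those of the next in that order. Fgfr3 was at 1.04 ± 0.07, Pdgfc at 0.558 ± 0.125 and Fgfr4 at 0.114 ± 0.013, above only 4.5% of the genes tested.

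**Figure D1:**
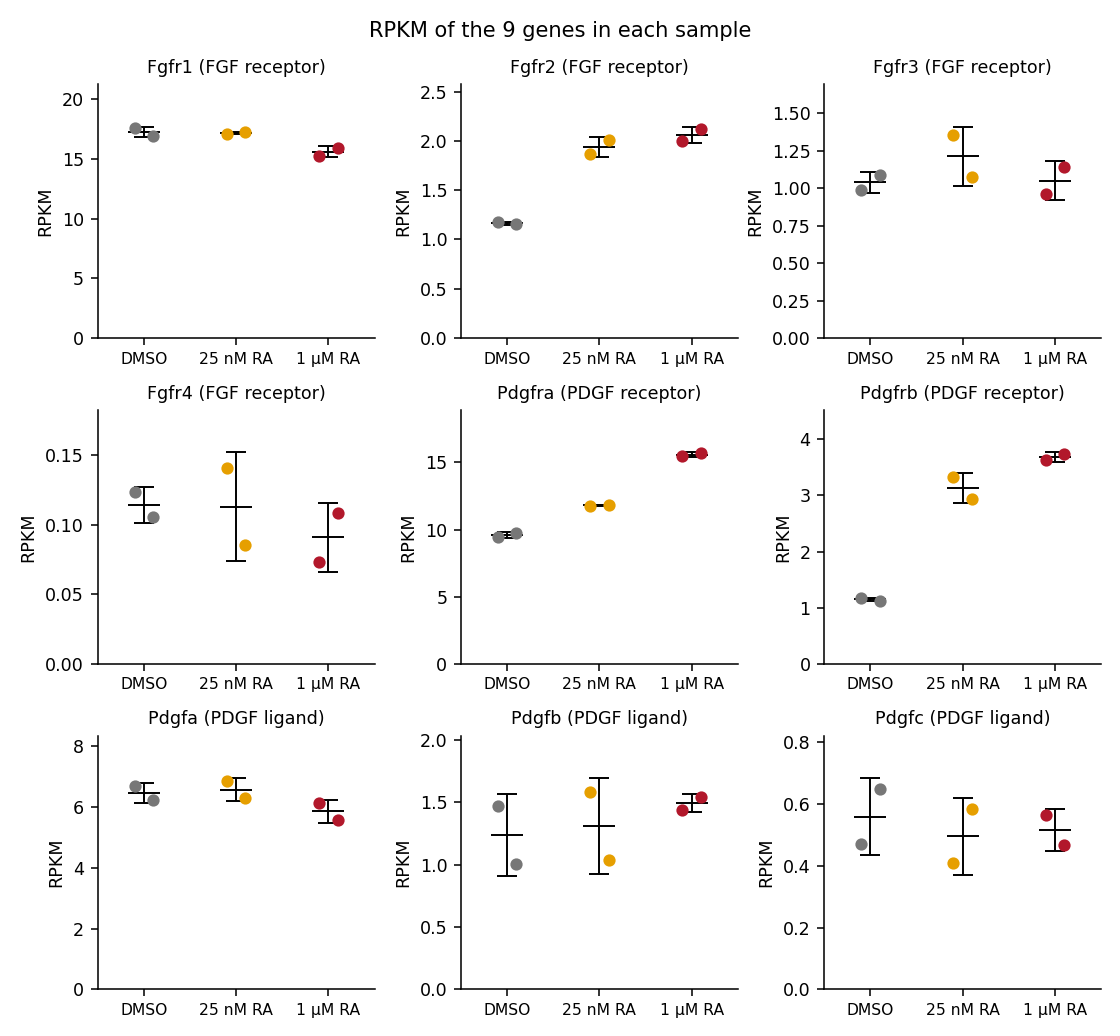
RPKM (vertical axis, from 0, a scale of its own in each panel) of the 9 genes in DMSO, 25 nM RA and 1 µM RA. Points are the 2 samples of a condition, the horizontal bar their mean and the error bars the SD. Fgfr2, Pdgfra and Pdgfrb lie above both DMSO samples at both doses, whereas for Fgfr4 and Pdgfc the duplicates of each condition overlap those of the other conditions.

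With 25 nM RA, 3 of the 9 genes passed an adjusted p of 0.1 as higher than in DMSO (Fgfr2, Pdgfra and Pdgfrb) and none as lower, by the likelihood ratio test of edgeR. Among all genes tested, 4.5% were called higher and 3.55% lower. With 1 µM RA the same 3 genes were called higher and Fgfr1 lower, where 8.54% of all genes were called higher and 11.2% lower. Between the doses Pdgfra and Pdgfrb were called higher in 1 µM RA and no member lower, with 0.792% of all genes called higher and 2.62% lower. All 9 passed the filter on low counts, and because these same comparisons were known when the genes were chosen, nothing is read from the counts of calls. The quasi-likelihood test of edgeR called the same genes except Pdgfrb between the doses. The median log2 fold change of the 9 genes was 0.05 with 25 nM RA and 0.02 with 1 µM RA, against -0.0005 and 0.0013 over all genes tested.

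Pdgfrb had the largest difference of the 9. It was at 1.17 and 1.13 RPKM in the DMSO samples, 3.33 and 2.94 in 25 nM RA, and 3.62 and 3.74 in 1 µM RA. The 3 conditions did not overlap, and most of the distance lay between DMSO and the lower dose. The fold change against DMSO was 2.71 with 25 nM RA (log2 1.44, SE 0.088) and 3.19 with 1 µM RA (log2 1.67, SE 0.086). Between the doses the difference was 0.23 on the log2 scale (SE 0.073). In bulk RNA, more cells that express a gene and more RNA of it per cell cannot be told apart.

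Both transcripts of Pdgfrb, NM_008809 and NM_001146268, were higher in RA. They share one coding sequence in GENCODE and are 5410 and 5413 bases long, so the split between them rests on few reads. NM_008809 held between 50.7 and 63.8% of the gene's RPKM in DMSO, between 58.5 and 62.1% in 25 nM RA and between 59.4 and 66.9% in 1 µM RA, ranges that overlap. The gene lies on the plus strand of chromosome 18. A stricter rule, with a log2 fold change over 1 and a mean over 1 RPKM in RA as well as the adjusted p, was met at either dose by these 2 transcripts alone among the 18, and by 0.412% of all transcripts with 25 nM RA and 0.589% with 1 µM RA.

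Pdgfra differed by less but in steps. The DMSO samples were at 9.42 and 9.77 RPKM, those in 25 nM RA at 11.8 and 11.8, and those in 1 µM RA at 15.4 and 15.7. The duplicates lay close together and the conditions were well apart. The fold change was 1.23 with 25 nM RA (log2 0.29, SE 0.051) and 1.61 with 1 µM RA (log2 0.69, SE 0.050), and the doses differed by 0.40 (SE 0.050). Every alternative fit kept these 3 calls.

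The transcripts of Pdgfra (chr5:75152291-75198204, plus strand) have the same coding exons and start at different first exons. NM_011058, from the upstream start, was at 4.32 and 5.17 RPKM in DMSO, 6.31 and 6.11 in 25 nM RA and 8.77 and 8.42 in 1 µM RA. NM_001083316, whose start lies at chr5:75156166, was at 5.09 and 4.59, then 5.46 and 5.71, then 6.68 and 7.27. Both were higher in 1 µM RA than in DMSO. NM_011058 held 49.4 ± 5.0% of the gene's RPKM in DMSO and 55.2 ± 2.2% in 1 µM RA, a shift of about the size of the spread between the DMSO samples.

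Together, the PDGF receptors summed to 10.7 ± 0.2 RPKM in DMSO, 14.9 ± 0.2 in 25 nM RA and 19.3 ± 0.3 in 1 µM RA. Pdgfra exceeded Pdgfrb in every sample. There was 8.05 and 8.67 times as much Pdgfra as Pdgfrb in the DMSO samples, 3.54 and 4.02 times in 25 nM RA, and 4.26 and 4.19 times in 1 µM RA. The ratio was thus lower in all 4 RA samples than in both DMSO samples, and it was lowest at 25 nM, where Pdgfrb had nearly reached its level at the higher dose and Pdgfra had not.

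**Figure D2:**
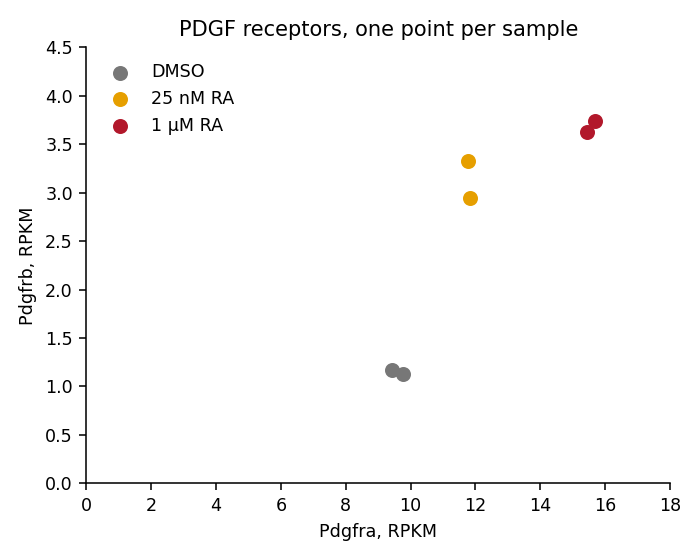
Pdgfra (horizontal axis, RPKM) against Pdgfrb (vertical axis, RPKM), one point per sample and both axes from 0. The scales of the axes differ. From DMSO to 25 nM RA the mean of Pdgfrb went from 1.15 to 3.13 RPKM and that of Pdgfra from 9.59 to 11.8. From 25 nM to 1 µM RA Pdgfrb went from 3.13 to 3.68 RPKM and Pdgfra from 11.8 to 15.6.

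Among the FGF receptors, Fgfr2 (chr7:130162451-130266808) was higher in RA. It was at 1.18 and 1.15 RPKM in DMSO, 1.86 and 2.01 in 25 nM RA, and 2.00 and 2.12 in 1 µM RA. The RA samples lay above both DMSO samples, and the doses overlapped. The fold change was 1.65 with 25 nM RA (log2 0.72, SE 0.092) and 1.74 with 1 µM RA (log2 0.80, SE 0.091), and the doses differed by 0.08 (SE 0.084).

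The Fgfr2 transcripts differed unequally. NM_010207, with the IIIc exon, had 302 and 247 estimated counts in DMSO, 320 and 438 in 25 nM RA, and 373 and 386 in 1 µM RA, a log2 fold change of 0.57 (SE 0.15) and 0.56 (SE 0.15). NM_201601, with the IIIb exon, had 12.0 and 6.33 in DMSO, 49.2 and 63.0 in 25 nM RA, and 73.9 and 92.2 in 1 µM RA, a log2 fold change of 2.74 (SE 0.48) and 3.29 (SE 0.47). The conditions did not overlap for NM_201601.

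As a share of Fgfr2 RPKM, NM_201601 was 4.09 and 2.67% in the DMSO samples, 14.2 and 13.3% in 25 nM RA, and 17.5 and 20.4% in 1 µM RA. The transcript with the IIIc exon remained the larger part in every sample. Reads were 50 bases long and single-end, the split was estimated by expectation maximisation over the 2 annotated transcripts, and reads from a transcript of another exon combination would also be divided between these 2. The gene total does not depend on the split. Leaving out any 1 sample gave between 2.46 and 3.15 for NM_201601 with 25 nM RA and between 3.01 and 3.70 with 1 µM RA.

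**Figure D3:**
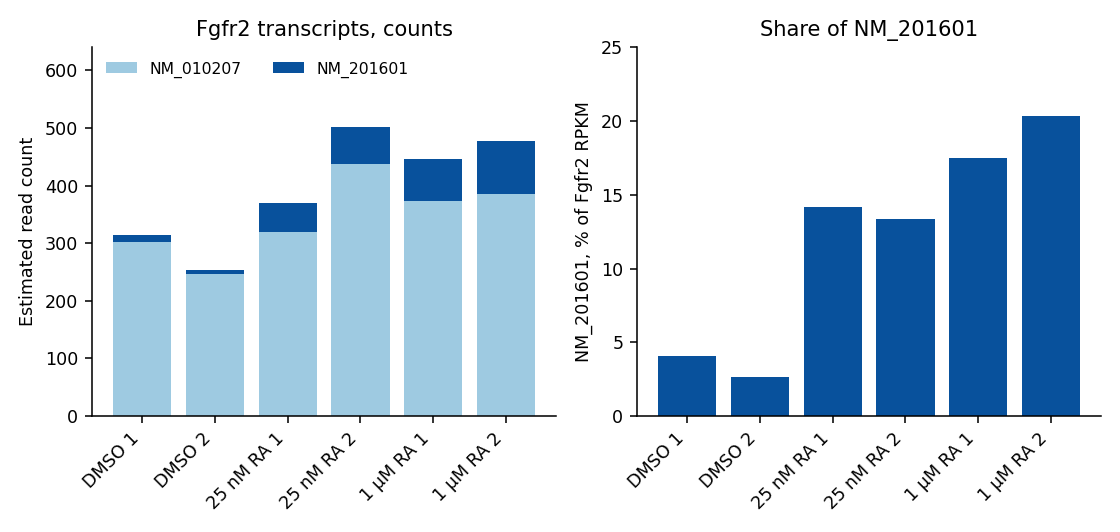
Left, estimated read counts of the 2 Fgfr2 transcripts in each sample, stacked, with NM_201601 (IIIb exon) in dark blue on NM_010207 (IIIc exon) in light blue. Right, the share of NM_201601 in Fgfr2 RPKM, in percent, between 2.67 and 4.09% in DMSO and between 13.3 and 20.4% in RA.

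Fgfr1 (chr8:25518759-25575718, plus strand) was the one member called lower. It was at 17.6 and 16.9 RPKM in DMSO, 17.1 and 17.2 in 25 nM RA, and 15.3 and 15.9 in 1 µM RA. The 1 µM samples lay below all 4 others. The log2 fold change was -0.15 (SE 0.050) with 1 µM RA, or 0.899 times the DMSO level, and -0.0097 (SE 0.050) with 25 nM RA. The call at 1 µM was lost without DMSO sample 1 or without 1 µM sample 1, with log2 fold changes of -0.18 to -0.13 over the samples left out.

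Most Fgfr1 RNA was assigned to the pair of transcripts that differ by 6 bases. NM_010206 held 54.3 and 55.2% of Fgfr1 RPKM in DMSO, 46.2 and 51.2% in 25 nM RA, and 54.1 and 45.5% in 1 µM RA. The 1 µM duplicates thus spanned nearly the whole range of the other samples. NM_010206 was the one transcript of the 18 called lower in 1 µM RA (log2 -0.29, SE 0.10), and the quasi-likelihood test did not call it. NM_001079909 stayed between 1.98 and 3.69% of the gene in every sample.

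Across transcripts, 5 of the 18 were called higher with 25 nM RA (both of Fgfr2, both of Pdgfrb and NM_011058 of Pdgfra) and none lower, where 2.25% of the 22074 transcripts tested were called higher and 1.44% lower. With 1 µM RA 6 were called higher, the other Pdgfra transcript included, and 1 lower, where 3.8% were called higher and 4.5% lower. Between the doses both Pdgfra transcripts were called higher and none lower, with 0.707% of all transcripts called higher and 1.1% lower. The quasi-likelihood test called 3, 6 and 0 of the 18 as higher in these comparisons, and none as lower. DESeq2 did not call NM_010207 with 25 nM RA, NM_010206 with 1 µM RA or NM_001083316 between the doses. A fit with the replicate number as a block did not call NM_010206 with 1 µM RA. Of 12 alternative fits with 25 nM RA, 7 called NM_010207, which was lost without either DMSO sample or 25 nM sample 2, and 8 called NM_011058, which was lost without DMSO sample 1 or either 25 nM sample. With 1 µM RA, NM_010207 was called in 10 of 12, being lost without either DMSO sample, and NM_010206 in 6 of 12, with losses without either DMSO sample or 1 µM sample 2. Between the doses NM_001083316 was called in 8 of 12, with losses without 1 µM sample 2 or 25 nM sample 1, and NM_011058 in 11 of 12.

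Fgfr3 (chr5:33721724-33737068, plus strand) was at 0.988 and 1.09 RPKM in DMSO, 1.35 and 1.07 in 25 nM RA, and 0.959 and 1.14 in 1 µM RA. The conditions overlapped, and the log2 fold change was 0.22 (SE 0.13) and 0.02 (SE 0.14). This gene too has an alternative pair of exons, at chr5:33731281-33731431 in NM_001163217 and at chr5:33732117-33732261 in the other 4 transcripts. NM_001163217 held 45.2 and 31.2% of Fgfr3 RPKM in DMSO, 14.8 and 22.4% in 25 nM RA, and 5.14 and 60.3% in 1 µM RA. Duplicates of 1 condition differed more than the conditions did, so no balance of Fgfr3 forms could be read at this depth of between 168 and 212 counts per sample. A pseudogene of Fgfr3 is annotated elsewhere in the genome, and reads that match both could be divided.

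Fgfr4 (chr13:55152818-55168759, plus strand) had between 10 and 20 counts per sample. Its RPKM was 0.123 and 0.105 in DMSO, 0.141 and 0.085 in 25 nM RA, and 0.073 and 0.109 in 1 µM RA. These values overlap, and the log2 fold changes of -0.07 (SE 0.38) and -0.34 (SE 0.40) leave differences of either sign within 1 SE at both doses. No difference was detectable at this depth.

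The FGF receptors summed to 19.6 ± 0.4 RPKM in DMSO, 20.4 ± 0.04 in 25 nM RA and 18.8 ± 0.7 in 1 µM RA. Fgfr1 supplied 88.1 ± 0.5% of that sum in DMSO, 84.0 ± 0.6% in 25 nM RA and 83.0 ± 0.6% in 1 µM RA. Fgfr2 supplied 5.96 ± 0.04%, 9.47 ± 0.53% and 11.0 ± 0.03%. Fgfr1 exceeded Fgfr2 14.9-fold and 14.7-fold in the DMSO samples, 9.19-fold and 8.58-fold in 25 nM RA, and 7.62-fold and 7.50-fold in 1 µM RA, without overlap between conditions.

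**Figure D4:**
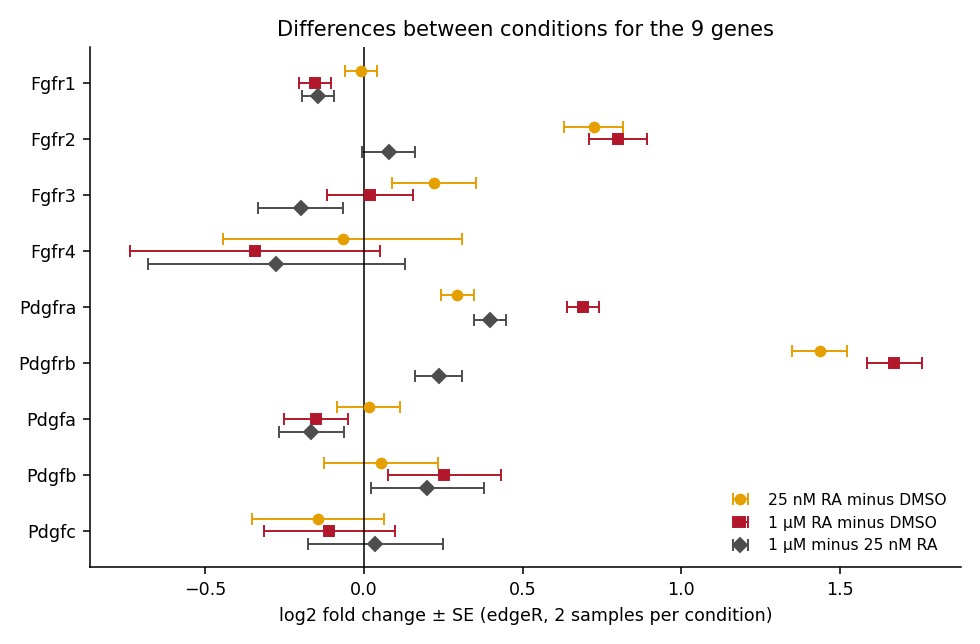
Log2 fold change (horizontal axis, with its SE from the edgeR fit of 6 samples) of each gene for 25 nM RA minus DMSO (circles), 1 µM RA minus DMSO (squares) and 1 µM minus 25 nM RA (diamonds). Pdgfrb, Fgfr2 and Pdgfra lie to the right of 0 at both doses, Pdgfra has the widest gap between doses among the 3 (0.40), and the error bars of Fgfr4, Pdgfb and Pdgfc are the widest of the 9.

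None of the PDGF ligands was called in any comparison. Pdgfa (chr5:138976972-138994953, minus strand) was the most abundant, at 6.70 and 6.22 RPKM in DMSO, 6.84 and 6.32 in 25 nM RA, and 6.13 and 5.59 in 1 µM RA. The 1 µM samples lay just below both DMSO samples, with a log2 fold change of -0.15 (SE 0.10), and the 25 nM samples overlapped them (0.01, SE 0.099). It supplied 78.3 ± 1.1% of the summed ligand RPKM in DMSO and 74.4 ± 1.3% in 1 µM RA.

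Pdgfb (chr15:79995876-80014808, minus strand) was at 1.47 and 1.00 RPKM in DMSO, 1.58 and 1.04 in 25 nM RA, and 1.44 and 1.55 in 1 µM RA. The duplicates differed 1.47-fold in DMSO and 1.52-fold in 25 nM RA, with sample 1 the higher in both. The log2 fold change with 1 µM RA was 0.25 (SE 0.18), and it went from 0.02 to 0.56 over the samples left out. Without DMSO sample 1 it passed the threshold. Pdgfc (chr3:81036416-81214031, plus strand) was at 0.47 and 0.646 RPKM in DMSO, 0.407 and 0.583 in 25 nM RA, and 0.564 and 0.466 in 1 µM RA. Its conditions overlapped, and the log2 fold changes were -0.15 (SE 0.21) and -0.11 (SE 0.21).

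In GENCODE, 6 genes on the opposite strand overlap 5 of the members (Fgfr1, Fgfr3, Pdgfra, Pdgfb and Pdgfc), and 1 of them, Gm16159 over Fgfr1, has counts of its own in the tables. The libraries kept strand, but the sources used here do not state whether the counting used it, so reads from these pairs may not have been separated.

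The genes whose pattern was nearest to that of the 3 most changed members were sought among the 11095 genes with a mean of at least 1 RPKM, by the root mean square difference of centred log2 CPM over the 6 samples. Nearest to Pdgfrb were B3gnt7 (0.0696), Nrip1 (0.0696), the gene for a nuclear receptor corepressor, and Nt5e (0.0776), the gene for the ecto-nucleotidase CD73. Their log2 fold changes were 1.40 to 1.46 with 25 nM RA and 1.56 to 1.58 with 1 µM RA. Nearest to Fgfr2 were Lrrk1 (0.0363), Tfap2c (0.0515), which encodes a transcription factor of the AP-2 family, and Gse1 (0.0567). Nearest to Pdgfra were Lrrn4 (0.0563), Foxc1 (0.0635), a forkhead factor of paraxial mesoderm, and Rhbg (0.0665). These are descriptions over 6 samples in 3 conditions and say nothing of shared control.

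Other genes of presomitic and paraxial mesoderm moved in both directions beside Pdgfra. Tbx6 fell from 8.59 ± 0.63 RPKM in DMSO to 5.92 ± 0.20 in 1 µM RA, and Msgn1 from 27.4 ± 0.6 to 14.8 ± 0.9. Of the 7 markers in that list, 4 were called higher and 2 lower at each dose. Those called higher were Meox1, Tcf15, Foxc2 and Foxc1, with log2 fold changes of 2.68, 1.40, 0.82 and 0.60 in 1 µM RA. The summed RPKM of the 7, of which Msgn1 was the largest part in DMSO, went from between 60.5 and 61.8 in DMSO to between 51.1 and 54.2 in 1 µM RA. In the endoderm list 4 of 6 were called lower at each dose and none higher, with Sox17 at 6.76 ± 0.11 RPKM in DMSO and 3.44 ± 0.13 in 1 µM RA. Of the 7 markers of lateral and cardiac mesoderm and endothelium 2 were over 1 RPKM in DMSO, and with 1 µM RA 2 were called higher and 1 lower. Mesp1 fell from 48.6 ± 1.1 to 32.7 ± 2.1 RPKM, while Etv2 rose from 2.89 ± 0.47 to 4.43 ± 0.58 and Pecam1 from 0.336 ± 0.068 to 0.540 ± 0.032, the latter pair being named after their values were seen. The sum of the 7, most of it Mesp1, went from between 51.2 and 53.5 to between 36.2 and 40.0 in 1 µM RA. Of the 8 NMP markers, 5 were called higher and 1 lower with 25 nM RA, and 4 higher and 1 lower with 1 µM RA. Sox2 rose to 15.4 ± 0.2 RPKM in 25 nM RA and 16.3 ± 1.3 in 1 µM RA, whereas T was not called (log2 -0.005 and -0.03). Of the 5 neural markers, none was called with 25 nM RA, and 1 was called higher and 1 lower with 1 µM RA. None of the 6 pluripotency markers was called at either dose. The part of cells of any of these kinds in the levels of the 9 genes was not tested.

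The partners, ligands and effectors of these receptors were taken from 7 lists with 121 genes present in the tables, tested with all other genes. Because the lists were drawn up with earlier results known, the p-values printed are those adjusted over all 15143 genes. A count by unadjusted p is given only where no gene of a list was called against DMSO. The shares of calls among all genes given above (4.5% higher and 3.55% lower with 25 nM RA, 8.54% and 11.2% with 1 µM RA) are the background for each count of calls.

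Among the 18 partners and modulators of FGF receptors, 2 rose and 2 fell with 25 nM RA, and 2 rose and 6 fell with 1 µM RA. Flrt3, a transmembrane protein that binds FGF receptors, rose from 5.31 ± 0.21 RPKM to 9.17 ± 0.02 and 10.7 ± 0.3 (log2 0.79 and 1.01, adjusted p = 2.4e-38 and 9.6e-66). Il17rd, or Sef, an inhibitor of FGF receptor signalling, rose by 0.22 and 0.25 (adjusted p = 0.0003 and 1.2e-05). Gpc4, a heparan sulfate proteoglycan, fell from 3.12 ± 0.34 to 2.16 ± 0.08 RPKM with 1 µM RA (log2 -0.53, adjusted p = 2.2e-05). Its lower level with 25 nM RA (log2 -0.35, adjusted p = 0.02) lost the call without DMSO sample 2, without 25 nM sample 2 and with DESeq2 (adjusted p up to 0.44 over the alternatives).

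The list of FGF ligands held 22 genes. Fgf11, Fgf12, Fgf13 and Fgf14 among them encode intracellular proteins that are not classical ligands of these receptors. Of the 22 genes 15 passed the filter on low counts, Fgf11 to Fgf14 included. Of those 15, 4 rose and 3 fell with 25 nM RA, and 6 rose and 3 fell with 1 µM RA. Fgf13 was among those that fell at each dose. Fgf15 rose from 7.77 ± 0.02 RPKM to 21.9 ± 0.3 and 33.3 ± 0.1 (log2 1.49 and 2.09, adjusted p = 1.1e-125 and 1e-268). Fgf4 rose from 4.31 ± 0.15 to 12.2 ± 0.2 and 17.9 ± 0.2 RPKM (log2 1.49 and 2.05, adjusted p = 1.6e-118 and 8.3e-241). Fgf5, more abundant in DMSO than Fgf15 and Fgf4, fell from 48.8 ± 0.8 to 37.8 ± 0.7 and 36.2 ± 1.2 RPKM (log2 -0.37 and -0.44, adjusted p = 2.4e-11 and 4.1e-16).

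Of 17 tested relatives of the PDGF family, which include the receptors and ligands of the KIT, CSF1 and VEGF systems, 1 rose and 2 fell with 25 nM RA, and 2 rose and 4 fell with 1 µM RA. Kit, a receptor of the same class as the PDGF receptors, rose from 3.86 ± 0.04 RPKM to 5.79 ± 0.09 and 6.64 ± 0.03 (log2 0.58 and 0.78, adjusted p = 1.1e-19 and 1.7e-36). Kitl, its ligand, fell from 1.94 ± 0.14 to 1.29 ± 0.02 and 1.28 ± 0.04 RPKM (log2 -0.58 and -0.60, adjusted p = 8.7e-09 and 1.4e-09). Vegfa rose with 1 µM RA by 0.36 (adjusted p = 3.1e-06) and was 0.18 higher with 25 nM RA, short of the threshold (adjusted p = 0.12).

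Of 6 proteases that process PDGF chains, none was called with 25 nM RA by the likelihood ratio test or the quasi-likelihood test of edgeR, and 1 had an unadjusted p under 0.05 by each. With 1 µM RA none rose and 2 fell. Furin, a proprotein convertase that cleaves the PDGF-A and PDGF-B precursors, was at 6.50 ± 0.58 RPKM in DMSO and 5.78 ± 0.06 in 1 µM RA (log2 -0.18, adjusted p = 0.043), a call lost without DMSO sample 1, 1 µM sample 1 or 1 µM sample 2 and with DESeq2 (adjusted p up to 0.57 over the alternatives). Pcsk5, another convertase, was at 0.322 ± 0.008 and 0.229 ± 0.041 RPKM (log2 -0.48, adjusted p = 0.067). The call of Pcsk5 was lost without either DMSO sample or 1 µM sample 2, with DESeq2, and by the quasi-likelihood test (adjusted p = 0.11).

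Of 36 adaptors and effectors, none rose and 3 fell with 25 nM RA, and 1 rose and 8 fell with 1 µM RA. Frs2, the docking protein of FGF receptors, fell from 3.58 ± 0.12 RPKM to 3.00 ± 0.06 and 2.68 ± 0.13 (log2 -0.26 and -0.43, adjusted p = 0.0054 and 6.6e-08). Cbl and Cblb, the genes for ubiquitin ligases that send activated receptors to degradation, fell by 0.63 and 0.43 on the log2 scale with 1 µM RA (adjusted p = 1.5e-12 and 1.9e-07). With 25 nM RA they were at -0.25 and -0.24 (adjusted p = 0.032 and 0.023). At that lower dose the call of each of these 3 was lost without DMSO sample 2 and with DESeq2. It was also lost without 25 nM sample 1 for Frs2 and Cbl, and without DMSO sample 1 or 25 nM sample 2 for Cblb.

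Of 17 tested feedback inhibitors and readout genes of ERK, 4 rose and 4 fell with 25 nM RA, and 5 rose and 7 fell with 1 µM RA. The list did not move in one direction: the phosphatase genes Dusp5 (log2 1.08 and 1.22, adjusted p = 2.8e-37 and 3.5e-48) and Dusp9 (log2 0.61 and 0.84, adjusted p = 2.8e-25 and 3.5e-48) rose. Dusp4, which encodes another phosphatase of MAP kinases, fell (log2 -0.21 and -0.38, adjusted p = 0.00078 and 4.7e-12), the former call being lost without 25 nM sample 2.

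Of 4 regulators of the choice between the IIIb and IIIc exons, none rose, 1 fell with 25 nM RA and 2 with 1 µM RA. Esrp1, which favours the IIIb exon, was at 16.8 ± 0.2 RPKM in DMSO, 15.6 ± 0.004 in 25 nM RA (log2 -0.11, adjusted p = 0.28) and 15.4 ± 0.7 in 1 µM RA (log2 -0.13, adjusted p = 0.079). Rbfox2, also a splicing regulator of Fgfr2, was at 12.98 ± 0.40 RPKM in DMSO and 11.6 ± 0.4 in 1 µM RA (log2 -0.17, adjusted p = 0.0055), and with 25 nM RA the log2 fold change was -0.14 (adjusted p = 0.089). The call of Esrp1 was lost without either DMSO sample or 1 µM sample 2, that of Rbfox2 at 1 µM without DMSO sample 1, and that at 25 nM without any of the 4 samples in turn. DESeq2 and the replicate block also ended the call of Esrp1 and that of Rbfox2 at 25 nM, as did a fit of only the 4 samples compared for Esrp1 and the absence of a filter on low counts for Rbfox2.

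**Figure D5:**
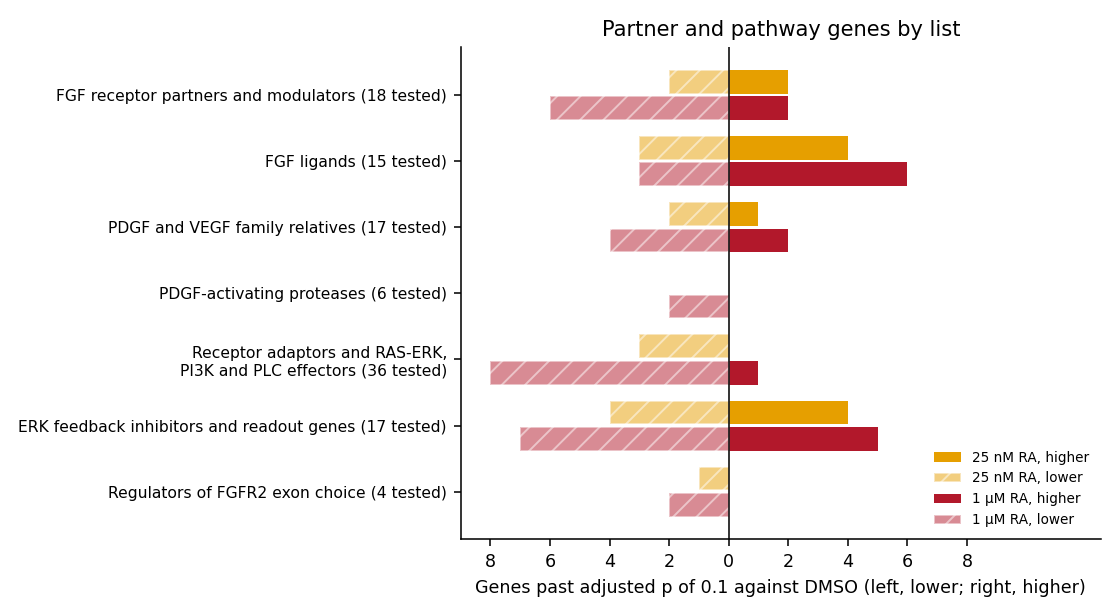
Number of genes past an adjusted p of 0.1 against DMSO (edgeR likelihood ratio test over all genes) in each of the 7 lists, higher to the right of 0 and lower, hatched, to the left, for 25 nM RA and 1 µM RA. The list of FGF ligands, which includes Fgf11 to Fgf14, shows 6 higher and 3 lower with 1 µM RA. The adaptors and effectors show 1 higher and 8 lower.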

How the data were processed

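Total RNA of 6 samples was depleted of ribosomal RNA and sequenced as 50-base single-end strand-specific libraries. Per the labels and methods, the authors mapped the reads to mm10 with TopHat2 2.0.13 and Bowtie2 2.2.5.0 and assigned them to RefSeq transcripts with the expectation maximisation of Partek 6.6. The deposited values are estimated counts per transcript, not whole for transcripts that share reads, and RPKM computed by the authors. The RPKM imply between 38466126 and 51499056 reads per sample, more than the estimated counts sum to (31753556 to 42029348), which lowers every RPKM alike within a sample.

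Estimated counts were summed per gene, rounded and fitted with edgeR 4.0.16 in R 4.3.3 (TMM, filterByExpr, all 6 samples, likelihood ratio test after the authors' methods, Benjamini-Hochberg over all genes, call at adjusted p under 0.1). The fits were also run on transcripts and tested on simulated counts. Alternatives were the quasi-likelihood test, DESeq2 1.42.0, other size factors and filters, only the 4 samples compared, a replicate block, a threshold of 0.05 and leaving out each sample. Genes were named by a fixed rule: the 9 members and their transcripts, up to 3 called genes of each list with the smallest adjusted p and samples on 1 side of both DMSO samples, the 3 genes nearest in pattern to each of 3 members, RA-responsive genes and cell type markers. The members and lists were chosen with earlier results of these data known. Depth and 2 samples per condition limit precision; SEs cover the spread between these samples only. Exon positions and sequences came from GENCODE M21 on GRCm38, upstream sequences from RefSeq, and 1 exon sequence is not reported here. Figures were drawn with matplotlib 3.10.9.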

Additional observations from a re-analysis of the deposited data

Results flagged for a closer look

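The direct comparison of the 2 doses differed for 17 genes, of which 2 are members, 8 are list genes and 7 are Rarb, markers or genes near a member in pattern, by the likelihood ratio test of edgeR with adjustment over all genes. Among the 9 receptor and ligand genes, the log2 difference of 1 µM minus 25 nM RA was 0.40 for Pdgfra and 0.23 for Pdgfrb, both given as a description because the genes were chosen with these values known. Among the list genes it was 0.60 for Fgf15 (adjusted p = 8.7e-27), 0.56 for Fgf4 (3.7e-21), 0.23 for Dusp9 (0.0044), 0.22 for Flrt3 (0.0048) and 0.19 for Kit (0.035). It was -0.38 for Cbl (adjusted p = 0.0012), -0.26 for Furin (0.0095) and -0.16 for Dusp4 (0.052). It was 0.36 for Rarb (adjusted p = 0.0003), -0.40 for Msgn1 (0.0013) and -0.40 for Sox17 (8.9e-05). Of the genes near a member in pattern, which were chosen on these same values and so get no p, it was 0.33 for Foxc1, 0.31 for Rhbg, 0.28 for Lrrn4 and 0.18 for Nrip1. Both samples of 1 µM RA lay on one side of both 25 nM samples for all 17 genes (log2 CPM). That adds no support of its own, because the 17 were listed for being called in this same comparison. Leaving out 25 nM sample 1 ended the calls of Flrt3, Kit, Furin, Dusp4, Msgn1, Nrip1 and Rhbg, and leaving out 25 nM sample 2 those of Pdgfrb, Kit, Furin, Cbl, Dusp9, Dusp4, Rarb, Nrip1 and Rhbg. Leaving out 1 µM sample 1 ended those of Pdgfrb, Kit, Dusp4 and Nrip1, and 1 µM sample 2 those of Pdgfrb and Rhbg. DESeq2 did not call Pdgfrb, Flrt3, Kit, Furin, Dusp4, Nrip1 or Rhbg between the doses, and the quasi-likelihood test did not call Pdgfrb, Nrip1 or Rhbg.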

How the results depend on the processing

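The calls of Pdgfrb, Pdgfra and Fgfr2 against DMSO held at both doses in all 12 alternative fits, and so did that of Pdgfra between the doses. That of Pdgfrb between the doses held in 7 of 12, with a log2 difference from 0.15 to 0.31 over the samples left out, and that of Fgfr1 with 1 µM RA in 10 of 12. Of 324 log2 fold changes of the 9 genes under the alternatives, 302 moved by no more than the SE, and the 22 that moved further belong to Fgfr3, Pdgfb, Pdgfc and the dose difference of Pdgfrb, each with 1 sample left out. No direction of a call turned. Fgfr1 was also called between the doses with total counts as library sizes or with at least 10 counts as the filter. With TMM-scaled totals of the estimated counts as denominator, Fgfr1 was at 21.0 RPKM in DMSO instead of 17.2 and Pdgfra at 11.7 instead of 9.59.

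Counts of calls against DMSO with 25 nM RA, with 1 µM RA and between the doses were 1219, 2983 and 516 genes, 815, 1833 and 398 transcripts, and 26, 48 and 10 list genes. With DESeq2 they were 567, 1594 and 158 genes, 406, 984 and 121 transcripts, and, for the first and the last comparison, 14 and 4 list genes. The quasi-likelihood test called 272, 873 and 2 transcripts and 336 genes between the doses, where a threshold of 0.05 left 340. With 1 sample left out the genes numbered 799 to 854, 1922 to 2827 and 205 to 577, the transcripts 541 to 708, 1090 to 1832 and 265 to 599, and the list genes 17 to 21, 34 to 39 and 4 to 10. The cause of these shifts was not tested. The replicate numbers did not pair the samples (correlations of deviations from -0.062 to 0.048 for genes), and a replicate block gave 1138, 2756 and 423 genes, which changed no call of the 9 genes. Fgfr4, with between 10 and 20 counts per sample, had the largest SE of the 9 genes.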
